A study of Mus musculus with 4 samples.

Results

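Basophils and mast cells are rare granulocytes that store histamine and proteases in granules and release them when IgE bound to their surface receptor meets its antigen. Both arise from myeloid progenitors of the bone marrow, and transcripts of their granule proteins already appear in some cells of the granulocyte monocyte progenitor (GMP) stage. The set described here was 7 mouse genes of these lineages: Gzmb, Cpa3 and Mcpt8, which encode granule proteases, Hdc, the gene of the histamine-forming enzyme, Fcer1a and Ms4a2, which encode the alpha and beta chains of the high-affinity IgE receptor, and Gata2, which encodes a zinc finger transcription factor of blood stem cells, mast cells and basophils. The genes were chosen by name, after they had been selected on their values in a comparison of Trib1-/- with wild-type GMP on these same arrays, so that difference is given below as a description, with no test and as no support for anything. All probe sets with 1 of these symbols were taken, 10 in number, from 34945 probe sets that carry a single symbol and 18193 genes in all.

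The arrays came from 4 sorted cell samples: GMP labelled Trib1-/-, GMP labelled wild type, MDP labelled Trib1-/- and MDP labelled wild type. All 4 came from mice of a mixed C57BL6J/129SV background, and the cells had no treatment. The labels give the cell type of MDP as macrophage dendritic cell, and MDP is the usual name of the progenitor shared by monocytes, macrophages and dendritic cells. The sources used here do not give the Trib1 allele, the number and age of the animals or the sort gates. Each group was 1 Affymetrix array, so the spread between animals or between sorts is unknown for every difference, and there is no p-value. Values are log2 values after RMA, a normalization that makes the arrays' distributions alike, and 1 unit is 2-fold. A gene was counted as measured where its probe set with the highest mean reached 3.29, the median over the 4 arrays, on 1 or more of them, and this limit is called the floor. It was reached by 11653 genes, among them all 7 of the set, though 5 of them did so in GMP alone.

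Array-wide facts that bear on these values are few. Trib1, which encodes a pseudokinase adaptor of the COP1 ubiquitin ligase, read 5.19 and 5.10 with its 2 probe sets in Trib1-/- GMP against 4.85 and 4.95 in wild-type GMP, and 4.71 and 5.56 in Trib1-/- MDP against 5.13 and 5.99 in wild-type MDP. Where these probes lie relative to the deleted part is not given, so Trib1 does not check the labels, and each array is named by its label. The list of GMP and early granulocyte genes (10 with a probe set, all above the floor) had linear values, summed over the genes with a probe set, of 8734 and 9724 in Trib1-/- and wild-type GMP, and 2418 and 2124 in Trib1-/- and wild-type MDP. The monocyte and dendritic progenitor list (11 with a probe set, 10 above the floor) had 406 and 392 in the GMP arrays. In the MDP arrays it had 1036 and 1002, in the same order of genotypes. Such sums are weighted to the brightest genes. In MDP those of the GMP list were Calr (10.22 in Trib1-/- against 9.66 in wild type) and Mpo (9.93 against 10.04). The median difference between genotypes in that list was -0.54 in GMP and -0.05 in MDP. Kit, the stem cell factor receptor gene, read 5.39 and 6.01 on the Trib1-/- and wild-type GMP arrays but stayed under the floor in MDP, at 2.69 and 2.43 in the same order. The 4 arrays correlated with one another at 0.948 to 0.977 over all probe sets.

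The stretch of 250 bases before the transcription start is shown for 5 of the 7 genes. GATA motifs were looked for since Gata2, 1 of the set, encodes a factor that binds GATA sites. Whether it acts on these genes was not tested. Sequences are from RefSeq, build GRCm38.p6, for which all 7 genes matched with 8 starts, and are printed 5′ to 3′ on the strand of the gene, which is the minus strand in each case. The build used for the array annotation is not given. Capitals mark matches, on either strand, to GATA motifs (the letters GATA after an A or a T and before an A or a G), to the RUNX core TGTGGT and to the C/EBP motif TTGCNNAA. The locations are chr3:20242182-20242431 for Cpa3, chr14:56262335-56262584 for Gzmb, chr14:56085198-56085447 for Mcpt8, chr1:173227230-173227479 for Fcer1a and chr19:11623720-11623969 for Ms4a2.
Cpa3: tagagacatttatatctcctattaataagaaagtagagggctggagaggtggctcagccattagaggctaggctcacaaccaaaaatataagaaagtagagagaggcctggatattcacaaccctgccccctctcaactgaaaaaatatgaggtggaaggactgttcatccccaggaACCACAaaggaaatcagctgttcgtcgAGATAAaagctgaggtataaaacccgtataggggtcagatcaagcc
Gzmb: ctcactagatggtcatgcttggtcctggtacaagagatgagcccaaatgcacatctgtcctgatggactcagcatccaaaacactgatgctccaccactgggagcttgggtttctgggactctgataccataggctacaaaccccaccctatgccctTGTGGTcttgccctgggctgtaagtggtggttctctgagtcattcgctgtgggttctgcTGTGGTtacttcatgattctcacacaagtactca
Mcpt8: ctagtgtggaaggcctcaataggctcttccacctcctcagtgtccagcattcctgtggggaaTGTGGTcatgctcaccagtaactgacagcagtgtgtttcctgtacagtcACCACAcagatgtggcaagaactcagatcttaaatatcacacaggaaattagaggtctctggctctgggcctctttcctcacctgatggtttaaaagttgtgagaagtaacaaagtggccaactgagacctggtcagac
Fcer1a: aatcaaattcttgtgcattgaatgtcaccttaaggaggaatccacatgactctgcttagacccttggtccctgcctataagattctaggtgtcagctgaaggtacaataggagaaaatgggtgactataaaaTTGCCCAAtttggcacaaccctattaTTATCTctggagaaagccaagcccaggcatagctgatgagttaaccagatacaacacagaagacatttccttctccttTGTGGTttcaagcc
Ms4a2: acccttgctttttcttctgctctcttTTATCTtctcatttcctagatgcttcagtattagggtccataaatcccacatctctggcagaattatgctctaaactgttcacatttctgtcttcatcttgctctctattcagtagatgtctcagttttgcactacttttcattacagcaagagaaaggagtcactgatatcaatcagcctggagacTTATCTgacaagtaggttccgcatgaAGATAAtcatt

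Among the 7 genes, 4 had a GATA match in this window. Positions count back from the start, with -1 as the last base before it, and give the first base of the match. Cpa3 had 1, AGATAA, at -46. Fcer1a had 1 on the other strand at -92, and Ms4a2 had 3 matches, at -224, -37 and -11. Hdc had TGATAG at -221, in a window on chromosome 2 that is not printed. Of all 32851 RefSeq starts in the table, 26.5% held a GATA match in the same length. A RUNX core was found in 4 genes, at -93 and -34 in Gzmb, at -73 in Cpa3, at -188 and -139 in Mcpt8 and at -14 in Fcer1a, against 4614 of the 32851 starts. The C/EBP motif, that of the factors TRIB1 acts on, was found in 1 gene, Fcer1a, as TTGCCCAA at -118, against 9.56% of starts. The PU.1 motif AGGAAGT was found in 0 genes, against 7.69%. Neither start of Gata2 held any of these motifs, and none of the matches overlapped. A match is a string of letters and does not show that a factor binds there.

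All 7 genes read lower in Trib1-/- than in wild-type GMP, by 0.83 to 3.37 on the log2 scale, and 4 of them at least 2-fold. Of all measured genes, 3.16% were at least 2-fold lower in this comparison, a share that the choice of the genes leaves without use as a yardstick. The median difference was -1.16 for the set and -0.06 for all measured genes. In these bulk samples, fewer cells that carry the transcripts and less RNA per cell cannot be told apart.

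The granule proteases showed the widest gaps. Gzmb encodes granzyme B, a serine protease best known from killer lymphocytes and also made by basophil and mast cell lineages of the mouse. It read 1.62 in Trib1-/- GMP and 4.99 in wild-type GMP, and 1.41 and 0.79 in Trib1-/- and wild-type MDP (probe set 1419060_at). Wild-type GMP was thus the single array with Gzmb above the floor, where it exceeded 77.3% of the probe sets of that array, while on the Trib1-/- GMP array it exceeded 17.8%. The GMP difference was -3.37, or 10.3-fold lower in Trib1-/-, rank 2 from the lowest of 11653 genes. Because the Trib1-/- value lies below the floor, that fold is uncertain, and setting such values to the floor gave a difference of -1.71.

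Cpa3 encodes carboxypeptidase A3, a metalloprotease stored in mast cell granules. It read 3.56 in Trib1-/- GMP against 5.93 in wild-type GMP, and 2.65 in Trib1-/- MDP against 2.51 in wild-type MDP (1448730_at). Both GMP values were above the floor and both MDP values below it. The GMP difference was -2.37, or 5.16-fold lower, rank 3 from the lowest, and it did not depend on the floor.

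Mcpt8 encodes mast cell protease 8, a serine protease that in the mouse marks basophils. It read 4.55 in Trib1-/- GMP against 6.11 in wild-type GMP, and 3.86 in Trib1-/- MDP against 4.16 in wild-type MDP (1449965_at). It was above the floor on all 4 arrays, with wild-type GMP set apart from the other 3, which spanned 3.86 to 4.55. The GMP difference was -1.56, or 2.94-fold lower, rank 25 from the lowest.

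**Figure D1:**
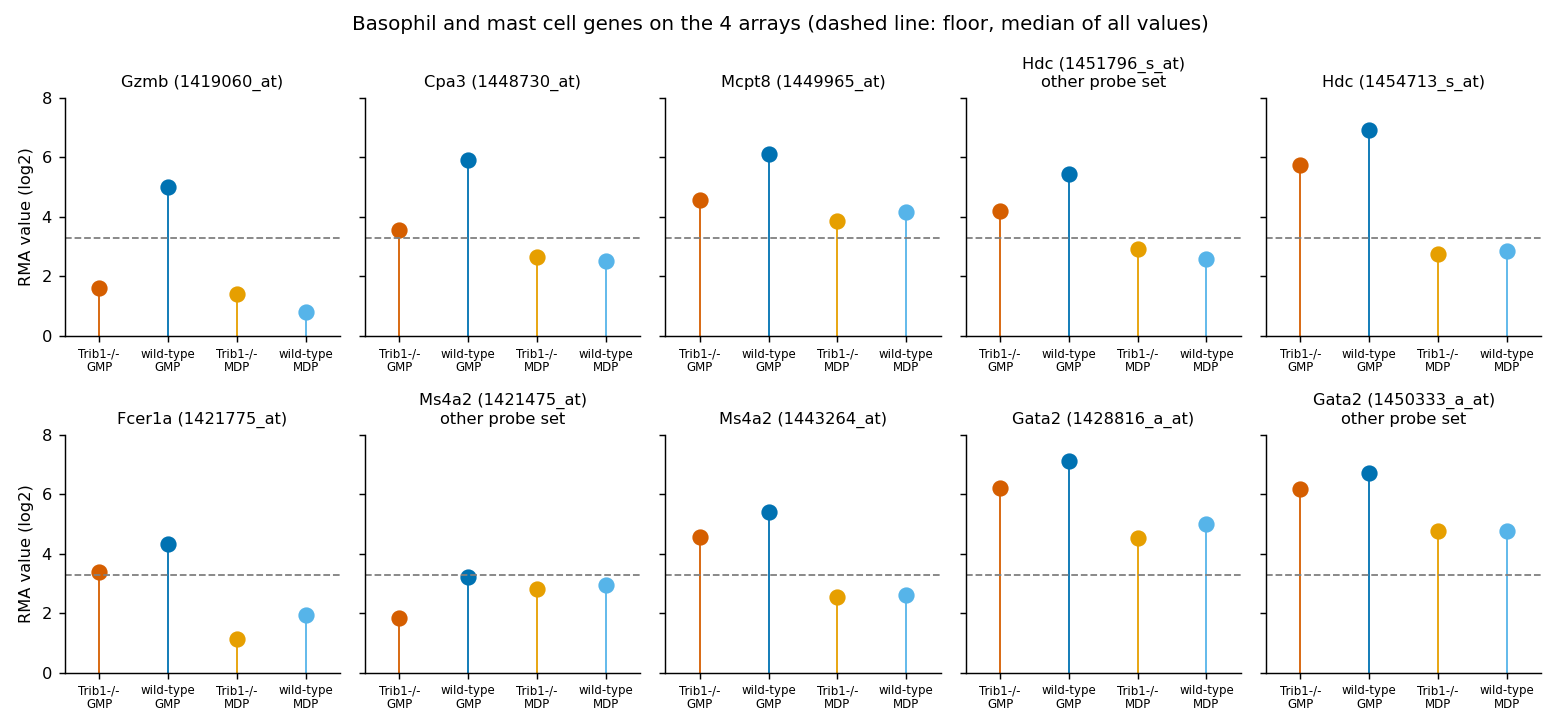
RMA values (log2) of the 10 probe sets of the 7 genes on the 4 arrays, 1 panel per probe set, with Trib1-/- left of wild type and 1 array per point. The dashed line is the floor at 3.29. In 9 of 10 panels wild-type GMP is above the floor, and in every panel it is the highest point.

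Hdc encodes histidine decarboxylase, which makes histamine from histidine. Its higher probe set (1454713_s_at) read 5.75 in Trib1-/- GMP against 6.91 in wild-type GMP, and 2.74 in Trib1-/- MDP against 2.86 in wild-type MDP. The other probe set (1451796_s_at) read 4.19 in Trib1-/- GMP against 5.45 in wild-type GMP, and 2.92 in Trib1-/- MDP against 2.58 in wild-type MDP. Both probe sets placed the GMP arrays above the floor and the MDP arrays below it. Their GMP differences were -1.16 and -1.26, 2.23-fold and 2.40-fold lower. The suffix of both marks probes that can match several transcripts.

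The IgE receptor chains differed less between the genotypes. Fcer1a, the chain that binds IgE, read 3.38 in Trib1-/- GMP against 4.33 in wild-type GMP, and 1.13 in Trib1-/- MDP against 1.94 in wild-type MDP (1421775_at). Its GMP difference was -0.95, just short of 2-fold, and the Trib1-/- value lay close to the floor. Ms4a2, a chain that spans the membrane and amplifies the signal, read 4.57 in Trib1-/- GMP against 5.40 in wild-type GMP, and 2.55 in Trib1-/- MDP against 2.61 in wild-type MDP (1443264_at), a GMP difference of -0.83. Its other probe set (1421475_at) was below the floor on all 4 arrays, at 1.83 in Trib1-/- GMP, 3.22 in wild-type GMP, 2.80 in Trib1-/- MDP and 2.94 in wild-type MDP. Its GMP difference of -1.39 has the same sign.

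Like Mcpt8, Gata2 did not depend on the floor, since both of its probe sets were above it on every array. The higher one (1428816_a_at) read 6.20 in Trib1-/- GMP against 7.11 in wild-type GMP, and 4.54 in Trib1-/- MDP against 4.99 in wild-type MDP. The other (1450333_a_at) read 6.17 in Trib1-/- GMP, 6.71 in wild-type GMP and 4.76 on both MDP arrays. The GMP differences were -0.91 and -0.54, both under 2-fold. Over 4922 genes with more than 1 probe set, differences from probe sets had an SD of 0.37 around the mean of their gene in this comparison. Both values of Gata2 lay within that SD of their mean, -0.73.

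How the low values were treated changed the size of these differences, and neither treatment below can reverse a sign. When every value under the floor was set to it, Gzmb, Cpa3, Mcpt8 and Hdc were again at least 2-fold lower in Trib1-/- GMP, beside 2.49% of all measured genes. With 32 added to the linear values before log2, which pulls in weak signals, the differences were -0.86 for Gzmb, -1.08 for Cpa3, -0.87 for Mcpt8, -0.83 for Hdc, -0.30 for Fcer1a, -0.41 for Ms4a2 and -0.69 for Gata2. Cpa3 alone was then at least 2-fold lower, beside 0.129% of all measured genes. Lower values outnumbered higher ones over the whole array too. Of the genes at least 2-fold apart in GMP, 86.8% were lower in Trib1-/-. Centring each array on the median of the measured genes moved the median of all genes by 0.10 and that share to 69.9%. The median of the 7 genes was then -1.06, and 4 of 7 were still at least 2-fold lower, beside 2.02% of all measured genes.

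**Figure D2:**
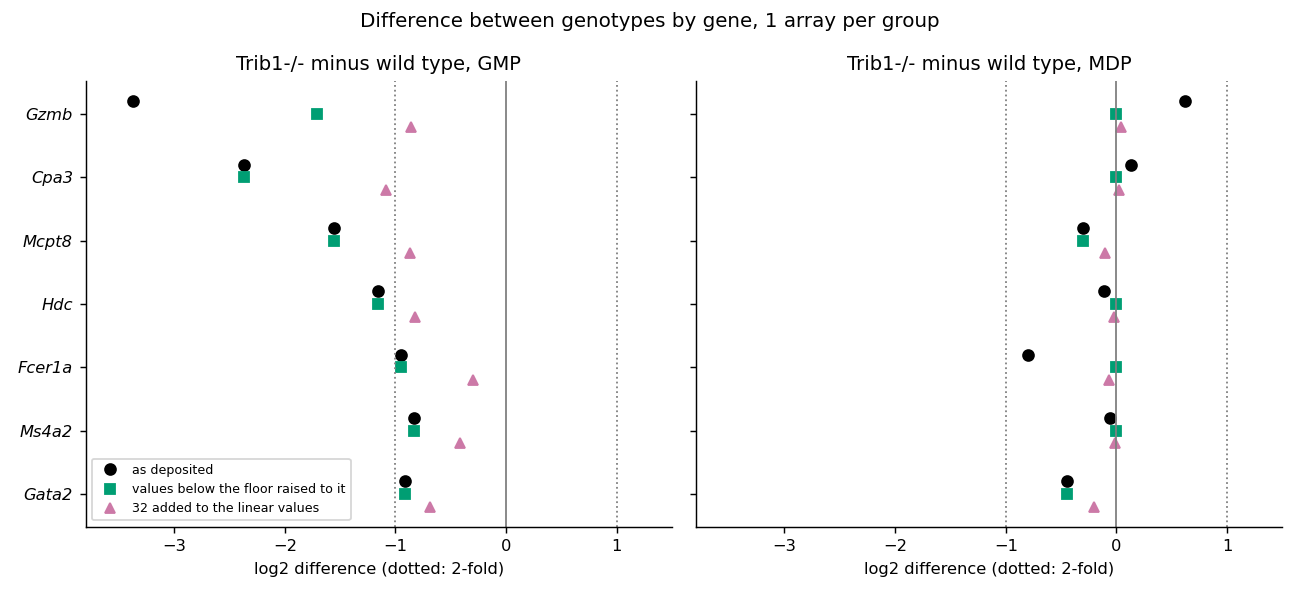
Log2 difference, Trib1-/- minus wild type, of the 7 genes in GMP (left) and in MDP (right), as deposited (circles), with values under the floor set to it (squares) and with 32 added to the linear values (triangles), from 1 array per group. In GMP all 7 genes lie below 0 under each treatment, while in MDP 5 of the 7 squares sit at 0. Neither treatment can reverse a sign.

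In MDP the same genes did not all share a direction between the genotypes. As deposited, 5 of the 7 were below 0 and 2 above, beside 48.5% of all measured genes below 0. The 2 above, Gzmb and Cpa3, were under the floor on both MDP arrays. The median was -0.11 against 0.01 for all measured genes. At least 2-fold lower were 0 of 7, and at least 2-fold higher were 0 of 7. Of all measured genes 1.53% were at least 2-fold lower and 1.10% at least 2-fold higher. The differences ran from -0.80 for Fcer1a to 0.62 for Gzmb, and both of these rest on values below the floor on both MDP arrays. With values raised to the floor, Gzmb, Cpa3, Hdc, Fcer1a and Ms4a2 had a difference of 0. The 2 genes measured on both MDP arrays were Mcpt8, at -0.31, and Gata2, at -0.45 with a second probe set at 0. The SD between probe sets was 0.38 in this comparison. The GMP difference minus the MDP difference was -3.99 for Gzmb, -2.50 for Cpa3, -1.25 for Mcpt8, -1.04 for Hdc, -0.77 for Ms4a2, -0.46 for Gata2 and -0.15 for Fcer1a, and these were not tested. Because 5 of the MDP terms come from values under the floor, the order depends on them. With values set to the floor it was -2.37 for Cpa3, -1.71 for Gzmb, -1.25 for Mcpt8, -1.16 for Hdc, -0.95 for Fcer1a, -0.83 for Ms4a2 and -0.46 for Gata2.

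All 7 genes, each by its higher probe set, read lower in MDP than in GMP in both genotypes. In wild type, the MDP array read at least 2-fold under the GMP array for all 7, beside 12.4% of all measured genes, with a median of -2.78. In Trib1-/-, 4 of 7 were, beside 4.08% of all measured genes, with a median of -1.66. As deposited, the 3 that fell short of 2-fold in Trib1-/- were the granule proteases. Gzmb differed between MDP and GMP by -0.21 in Trib1-/- and by -4.20 in wild type, Cpa3 by -0.91 in Trib1-/- and by -3.41 in wild type, and Mcpt8 by -0.69 in Trib1-/- and by -1.95 in wild type. Gzmb was under the floor on both Trib1-/- arrays and in wild-type MDP, and set to the floor its differences were 0 in Trib1-/- and -1.71 in wild type. Those of Cpa3 were then -0.27 in Trib1-/- and -2.64 in wild type, while Mcpt8 kept its values.

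The other 4 genes, by their higher probe sets and as deposited, had a gap of at least 2-fold in both genotypes. Hdc differed by -3.01 in Trib1-/- and -4.06 in wild type, Ms4a2 by -2.01 and -2.78, Fcer1a by -2.24 and -2.39, and Gata2 by -1.66 and -2.12, in the same order of genotypes. The second probe set of Hdc differed by -1.27 in Trib1-/- and by -2.87 in wild type. With values raised to the floor it was at -0.90 in Trib1-/-, short of 2-fold, and at -2.16 in wild type. The second probe set of Ms4a2, under the floor on every array, differed by 0.96 in Trib1-/- and by -0.28 in wild type. With the mean of its probe sets, Ms4a2 was at -0.53 in Trib1-/-, short of 2-fold, and at -1.53 in wild type. With values raised to the floor, 3 of 7 genes, by their higher probe sets, kept a gap of at least 2-fold in Trib1-/- (Hdc, Ms4a2 and Gata2). They stood beside 3.08% of all measured genes. In wild type 7 of 7 kept such a gap, beside 10.9%. Fcer1a was then at -0.09 in Trib1-/- and -1.04 in wild type, so which genes fall short of 2-fold in Trib1-/- depends on how low values are treated. These contrasts share their GMP arrays with the genotype difference in GMP, so the 2 sets of values are not independent, and they reuse the GMP values on which the genes were selected. Centring moved the median of all genes in the wild-type contrast by 0.13. The lower share of that contrast's 2-fold genes was then 58.9% in place of 74.9%. All 7 genes were still at least 2-fold lower, beside 9.6% of all measured genes.

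**Figure D3:**
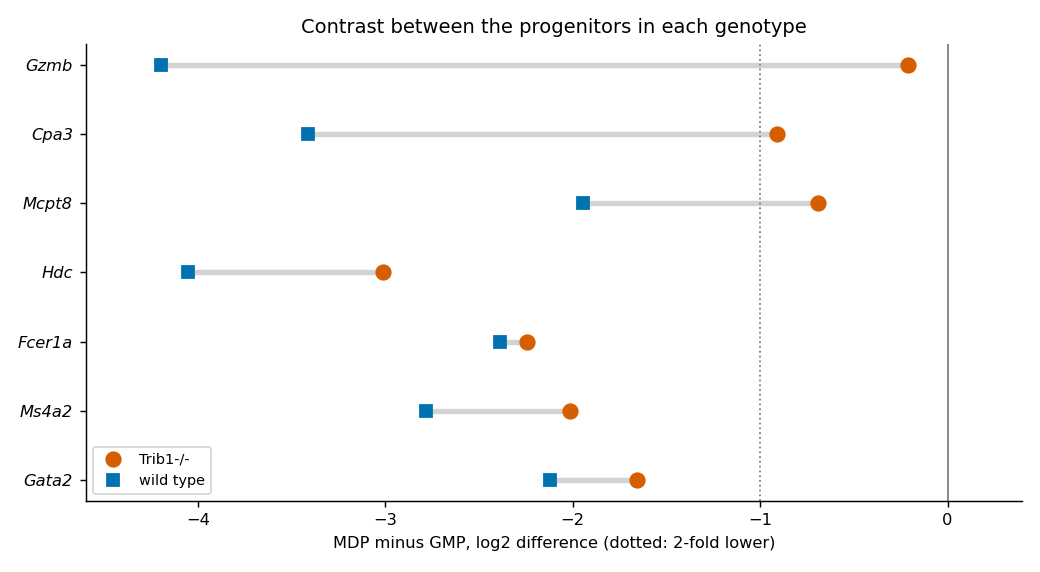
Log2 difference of the 7 genes between the progenitors, MDP minus GMP, in Trib1-/- (circles) and in wild type (squares), as deposited, from the higher probe set of each gene and 1 array per group. Every square is left of the 2-fold line, while the circles of Gzmb, Cpa3 and Mcpt8 lie right of it.

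Mcpt8 and Gzmb belong to a cluster of serine protease genes on mouse chromosome 14, and their neighbours were read on the same arrays. By gene order in GRCm38.p6, 7 protein-coding genes lie between them, all with a probe set: Ctsg, which encodes cathepsin G, and 6 other granzyme genes (Gzme, Gzmd, Gzmg, Gzmn, Gzmf and Gzmc). The 6 granzyme genes were below the floor on every array, at 0.49 to 2.98. Ctsg read 9.99 in Trib1-/- GMP against 10.54 in wild-type GMP, so it differed by -0.55 in GMP, and by -0.11 in MDP, where wild type read 7.11. On the other side of Mcpt8, Mcpt1, Mcpt2 and Mcpt4, proteases of mature mast cells, were below the floor on every array as well. Among the measured genes of this stretch, the gap between GMP genotypes was therefore -3.37 for Gzmb, -1.56 for Mcpt8 and -0.55 for Ctsg. The neighbours were looked up after the values of Gzmb and Mcpt8 were known.

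**Figure D4:**
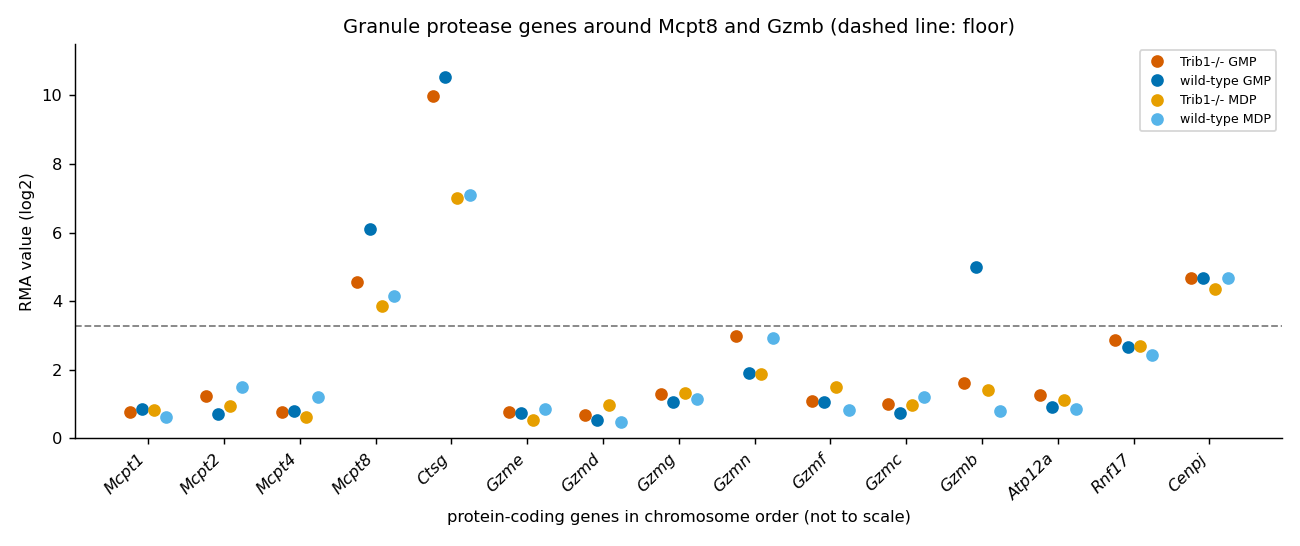
RMA values (log2) of protein-coding genes around Mcpt8 and Gzmb in chromosome order, on the Trib1-/- GMP, wild-type GMP, Trib1-/- MDP and wild-type MDP arrays, with the floor of 3.29 dashed. Gzmb stands above the floor on the wild-type GMP array alone, Mcpt8 and Ctsg on all 4, and the 6 granzyme genes between them on none.

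Further genes of the same cells came from lists drawn up by name. Of 12 granule protein genes with a probe set, 7 were below the floor on all arrays, among them the chymase gene Cma1 and the tryptase genes Tpsb2 and Tpsab1, with values of 0.63 to 2.95. Apart from the 3 proteases of the set, Ctsg and Srgn were measured. Srgn, the proteoglycan core that binds granule proteases, read 10.96 in Trib1-/- GMP and 11.11 in wild-type GMP, a difference of -0.15.

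In the IgE receptor list, 9 genes besides Fcer1a and Ms4a2 were above the floor. Of these, 7 were lower in Trib1-/- GMP, 0 of them at least 2-fold, and the 9 had a median of -0.45. Of all measured genes, 55.2% were below 0 and 3.16% at least 2-fold lower. Fcer1g, the gamma chain that the receptor shares with other Fc receptors, read 5.51 in Trib1-/- GMP against 6.19 in wild-type GMP, and 6.71 in Trib1-/- MDP against 6.74 in wild-type MDP. Unlike Fcer1a and Ms4a2 it was thus highest in MDP. The adaptor gene Gab2 differed by -0.72 in GMP (-0.36 once raised to the floor), the phospholipase gene Plcg2 by -0.52, and the kinase genes Syk by -0.50, Btk by -0.45 and Fyn by -0.04. Plcg1 and Inpp5d, the gene of the inositol phosphatase SHIP1, were each at 0.02, and Lat2 at -0.20. Other probe sets of Gab2, Syk and Plcg1 included 1 of the opposite sign each, and a second probe set of Inpp5d was at 0.78. The adaptor gene Lat was below the floor on all arrays, and the kinase gene Lyn was not analysed here.

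In the histamine list, Slc18a2, which encodes the transporter that loads histamine into granules, read 4.71 in Trib1-/- GMP against 5.18 in wild-type GMP, and 3.45 in Trib1-/- MDP against 3.34 in wild-type MDP. The receptor gene Hrh2 read 3.59 in Trib1-/- GMP and 3.64 in wild-type GMP. The other 4 genes (Hnmt, Aoc1, Hrh1 and Hrh4) were below the floor on all arrays. Hdc was thus the gene of this list with the widest measured gap between GMP genotypes.

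Among surface receptors, 8 genes were above the floor, 7 of them lower in Trib1-/- GMP, beside the same 55.2% of all measured genes below 0. The 8 had a median of -0.39. At least 2-fold apart were 0 of 8, beside 3.16% of all measured genes lower and 0.481% higher. The activation marker gene Cd69 differed by -0.94, Crlf2, the receptor gene of the cytokine TSLP, by -0.65, Kit by -0.63 and Il4ra by -0.53, or -0.29 once raised to the floor, with another probe set at 0.34. The integrin gene Itgb7 was higher by 0.83, or by 0.28 when its wild-type value, under the floor, was set to it. Basophil markers Cd200r3 and Itga2 were below the floor on all arrays.

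Of 10 cytokine and mediator genes with a probe set, 4 were above the floor. The chemokine genes Ccl3 and Ccl4 differed by -1.17 and -0.98 in GMP, and Alox5ap, whose protein serves leukotriene synthesis, by -0.80. Hpgds, which encodes a prostaglandin D synthase, was higher by 1.02, at 4.75 in Trib1-/- GMP against 3.72 in wild-type GMP. Il4, Il13 and Il6 were below the floor on all arrays.

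Of the transcription factors, 14 besides Gata2 were measured, with 10 of 14 below 0 in GMP, beside 55.2% of all measured genes. The 14 had a median of -0.31. At least 2-fold apart were 0 of 14, beside 3.16% of all measured genes lower and 0.481% higher. Irf8, a factor of monocytes and dendritic cells, differed by -0.70, Lmo4 by -0.68, Id2 by -0.66 (-0.47 once raised to the floor), Cebpa by -0.64 and Ikzf1 by -0.46. Gata1, a factor of erythroid, mast and eosinophil cells, was below the floor on all arrays.

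**Figure D5:**
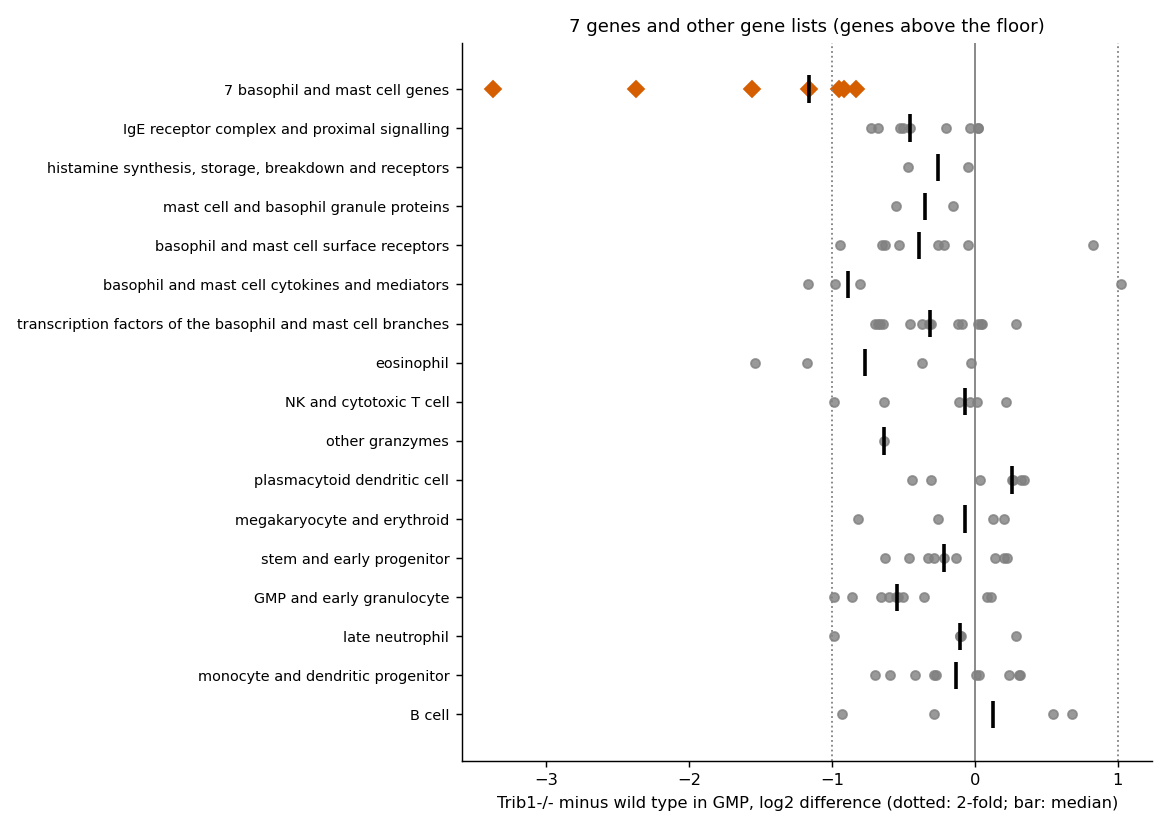
Log2 difference, Trib1-/- minus wild type, between the GMP arrays for the 7 genes (diamonds) and for genes of other lists above the floor (grey points, the 7 genes left out), with the median of each row as a bar. The 7 genes have a median of -1.16, and some genes, such as Kit and Nkg7, stand in 2 lists.

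Markers of other cells that carry some of these transcripts were read beside them. Of 4 measured eosinophil genes, 2 were at least 2-fold lower in Trib1-/- GMP, beside 3.16% of all measured genes. Siglecf, 1 of the 2, reached the floor on the wild-type GMP array alone. It was thus counted as measured only through the group where it is high, so that share is no yardstick here. Siglecf differed by -1.54 (-1.36 once raised to the floor), Prg2 by -1.17, Epx by -0.37 and Il5ra by -0.02. The 6 eosinophil genes with a probe set had summed linear values of 116 in Trib1-/- GMP against 204 in wild-type GMP. The brightest of them was Prg2, at 5.55 against 6.72 in the same order, and Prg3 and Ccr3 were below the floor on all arrays. Killer lymphocytes also express Gzmb. Of 14 genes of natural killer and cytotoxic T cells with a probe set, 6 were above the floor, and Ncr1, Gzma, Cd8a, Cd8b1, Tbx21 and Il2rb were below it on all arrays. Their summed linear values were 308 in Trib1-/- GMP against 519 in wild-type GMP, where Nkg7, also a gene of early granulocytes, read 7.73 against 8.71. Without Nkg7 the sums were 96.0 in Trib1-/- GMP and 98.8 in wild-type GMP. The perforin gene Prf1 read 4.65 in Trib1-/- GMP and 4.63 in wild-type GMP. The granzyme gene Gzmk read 3.71 in Trib1-/- GMP against 4.34 in wild-type GMP, a difference of -0.63. Of the 6 measured genes of this list, 4 were below 0 in GMP, beside 55.2% of all measured genes. The median of the 6 was -0.07.

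Plasmacytoid dendritic cell genes, 7 of 9 above the floor, had summed values of 362 in Trib1-/- GMP against 305 in wild-type GMP. Megakaryocyte and erythroid genes, 4 of 12 above the floor and with Klf1, Pf4 and Hba-a1 below it on all arrays, had 131 in Trib1-/- GMP against 163 in wild-type GMP. The stem and early progenitor list, 9 of 9 above the floor, had 605 in Trib1-/- GMP against 632 in wild-type GMP, and the late neutrophil list, 5 of 8 above it, 108 against 117 in the same order. B cell genes, 4 of 5 above the floor, had 162 in Trib1-/- GMP against 125 in wild-type GMP. A linear sum is weighted to its brightest gene. This was Tcf4 for plasmacytoid genes (7.80 against 7.47) and Ebf1 for B cell genes (6.98 against 6.43), in the same order. For megakaryocyte and erythroid genes it was Car2, at -0.82. The median GMP difference of measured genes was 0.26 for plasmacytoid, -0.06 for megakaryocyte and erythroid and 0.13 for B cell genes. It was -0.21 for stem and early progenitor genes and -0.10 for late neutrophil genes. GMP and early granulocyte genes had a median GMP difference of -0.54. In that list 0 of 10 were at least 2-fold apart, beside 3.16% of all measured genes lower and 0.481% higher. The part of any of these cells in the values of the 7 genes was not tested.

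The genes closest in pattern to the set were found by the distance between the 4 array values, each centred on the gene's own mean, and the mean centred profile of the 7 genes, over 10864 other named genes. This is a description over 4 arrays. The nearest was Ctla2a, which encodes a cysteine protease inhibitor, at a distance of 0.37. It read 3.91 in Trib1-/- GMP against 5.36 in wild-type GMP, and 2.51 in Trib1-/- MDP against 2.14 in wild-type MDP. Next came the glycolytic enzyme gene Tpi1 (0.44), C1qbp (0.50), Sdf2l1 (0.53), Hsd11b1 (0.56), Pcbd1 (0.57), Marveld1 (0.58), Smim4 (0.58), Dstn (0.59) and Eef1e1 (0.60), several of which are expressed in most cell types.

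Gene by gene, the nearest other gene was Smim4 for Gzmb (1.26) and for Cpa3 (0.67), Ranbp1 for Mcpt8 (0.21), Psmg1 for Fcer1a (0.21), Marveld1 for Ms4a2 (0.18) and Abhd11 for Gata2 (0.08). For Hdc it was Prg2 (0.32), the eosinophil gene of major basic protein, followed by Ctsg (0.54) and Kit (0.61). Within the set, Fcer1a and Gata2 were nearest to each other (0.50), followed by Fcer1a and Ms4a2 (0.54), while Mcpt8 and Hdc were the farthest apart (2.24). Gzmb lay nearest to Cpa3 (0.79). All these distances use values as deposited, and Gzmb, Cpa3, Hdc, Fcer1a and Ms4a2 lay under the floor in MDP. With values raised to the floor, Fcer1a differed between MDP and GMP by -0.09 in Trib1-/- and -1.04 in wild type. Gata2 then differed by -1.66 and -2.12, in the same order.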

How the data were processed

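The authors processed the arrays with RMA, per the submitters' processing notes, and the sources used here give no version. Per the labels' protocols, RNA was extracted with Trizol and labelled cRNA was made with the NuGEN Ovation system. The deposited values were taken as log2 from their range (0.14 to 14.5), since the scale is not stated. Weak RMA values lie near the background, so their folds are uncertain.

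Genes were named from the platform annotation where a probe set had 1 symbol, and 64 control probe sets were left out. Where a gene had several probe sets, the one with the highest mean stood for it. The number of arrays, 1 per group, limits the precision, so no test was made, and genes were counted at a log2 difference of 1. The genes and lists were chosen with earlier results of these data known. Named were all members, up to 5 genes per list with the largest GMP difference, every gene of the IgE receptor and histamine lists, and the nearest genes by pattern; others were chosen after their values were seen. Alternatives were other floors, values raised to the floor, the mean of probe sets, no suffixed probe sets, cyclic loess (limma 3.58.1, 3 iterations), centring, 32 added to the linear values, and sizes of 1.5-fold and 4-fold. The calculation, in Python 3.11.15 with pandas 2.3.3, was tested on simulated data.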

Additional observations from a re-analysis of the deposited data

Results flagged for a closer look

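For 2 genes the difference between genotypes ran in opposite directions in the 2 progenitors. Gzmb differed by -3.37 in GMP and by 0.62 in MDP, and Cpa3 by -2.37 in GMP and by 0.13 in MDP, each as Trib1-/- minus wild type. The opposition was not tested, with 1 array per group, and the MDP values of both genes lay below the floor on both arrays.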

How the results depend on the processing

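For each of the 7 genes, 4 differences were recomputed under up to 8 alternatives, 212 values in all. Of these, 177 moved by less than the SD between probe sets, 35 moved by more, and 0 of the differences of at least 2-fold changed sign. Many of the 177 could not move. No floor, the higher floor and no suffixed probe sets kept each value of the genes they left. The mean of probe sets did so for genes with 1 probe set. Centring shifted all genes of a comparison alike, by 0.01 to 0.13. Values raised to the floor or with 32 added cannot reverse a sign. Of the 35, 20 came with 32 added to the linear values, 11 with values raised to the floor and 4 with the mean of probe sets. With 32 added, which shrinks weak differences by construction, 1 gene (in place of 4) was at least 2-fold lower in Trib1-/- GMP, beside 0.129% of all measured genes. For MDP against GMP, 1 (in place of 4) was at least 2-fold lower in Trib1-/-, beside 0.558%. In wild type 4 (in place of 7) were, beside 2.72%. The medians of these progenitor contrasts were -0.31 in Trib1-/- and -1.02 in wild type. With values raised to the floor they were -0.69 and -2.11, in the same order. Without suffixed probe sets, which leaves 5 genes, the GMP genotype median was -1.56. The Trib1-/- progenitor contrast then had 2 genes at least 2-fold lower, beside 3.88% of all genes measured that way, and a median of -0.91. With the mean of probe sets its median was also -0.91, and Ms4a2 was at -0.53 in place of -2.01. The cause was not tested. At 1.5-fold, 7 genes were lower in Trib1-/- GMP, beside 13.2% of all measured genes, and 2 were apart between MDP genotypes (Fcer1a lower and Gzmb higher, both at 0 once raised to the floor), beside 7.61% of all measured genes lower and 7.16% higher. At 4-fold, 2 were lower in Trib1-/- GMP, beside 0.0515%. No floor, the higher floor, cyclic loess and centring moved no count of the 7 genes by over 1.5 times. Counts over all measured genes did move: in GMP, 235 were lower and 101 higher in Trib1-/- with centring, and 242 and 21 with the higher floor, against 368 and 56 as reported. In MDP, 63 were lower and 54 higher with the higher floor and 80 and 62 with values raised, against 178 and 128 as reported. No paired analysis was possible because each group is 1 array. The 1 array per group, and signals near the background in MDP, limit what can be read.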
